A study of Ovis aries with 3 samples.

Results

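Transcripts of glycolytic enzymes were followed in RNA of extracellular vesicles, small particles enclosed by membrane and shed by cells. The vesicles came from sheep conceptuses, each an embryo together with the membranes around it, at day 14 of pregnancy. The rows of the deposited table named GAPDH, TPI1, LDHA, LDHB, PGK1, ALDOA, PKM, ENO1, PGAM1 or GPI were taken, with or without a copy number after the name. Of these 10 symbols 8 had a row, each a single one, among 25197 rows in all, and PGAM1 and ENO1 were absent as symbols. There were 3 libraries in 1 group, with no control, cell or tissue group, so the data give levels in vesicles and no enrichment over the conceptus. Each whole conceptus had spent 24 h alone in a dish with 10 ml of DMEM/F-12 containing insulin, pyruvate and 10% fetal bovine serum depleted of exosomes, under 5% CO2 and 5% O2. Vesicles were precipitated from medium passed through a 0.2 µm filter, which leaves particles of several kinds in the preparation, and no label says which animal a library came from. The spread between libraries may therefore hold a technical part.

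Glycolysis splits glucose into pyruvate in the cytosol. Its first steps spend ATP to trap and split the sugar, the later steps return ATP and NADH, and lactate dehydrogenase regenerates NAD+ by turning pyruvate into lactate. The enzymes are soluble and abundant, GAPDH is widely used as a reference transcript, and several of the proteins are often found in vesicle preparations. Elongating ruminant conceptuses take up much glucose from the uterine lumen. Only RNA was measured here, so nothing below bears on the enzymes themselves.

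The values behave as RPKM, in which read numbers are divided by gene length and by library depth. Levels can then be compared between genes per length if reads cover the genes evenly, which was not tested. The deposited values summed to 17480.7, 40060.3 and 9531.8 in libraries 1, 2 and 3. Library 2 held the highest value of 742 of the 981 rows (75.6%) that were at 1 or more in all 3 libraries. Such rows are called detected below, and they made up 3.89% of all rows. As a measure of background, the 99th percentile of 476 olfactory receptor rows was 1.45, 1.025 and 1.75 in the respective libraries. A level in vesicle RNA does not separate fewer vesicles carrying a transcript from less of it per vesicle.

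Transcripts of glycolytic enzymes were led by GAPDH, which stood several times above TPI1 and LDHA, and these in turn above ALDOA, PKM and PGK1. GPI was uneven between libraries and LDHB was near background. Of the 8 rows 6 were detected (75%), against 3.89% of all rows, namely GAPDH, TPI1, LDHA, ALDOA, PKM and PGK1. The enzymes were chosen as members with these levels known, so this count describes the list and is no test of it. At a stricter value of 2 in all 3 libraries PKM and PGK1 dropped out and 4 rows were left. The median log2(value + 1) over all 8 rows was 2.40, 3.98 and 1.74 in libraries 1, 2 and 3, a mean of 2.71 ± 1.15 (SD, n = 3), while the median over all rows was 0.14 in each library.

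**Figure D1:**
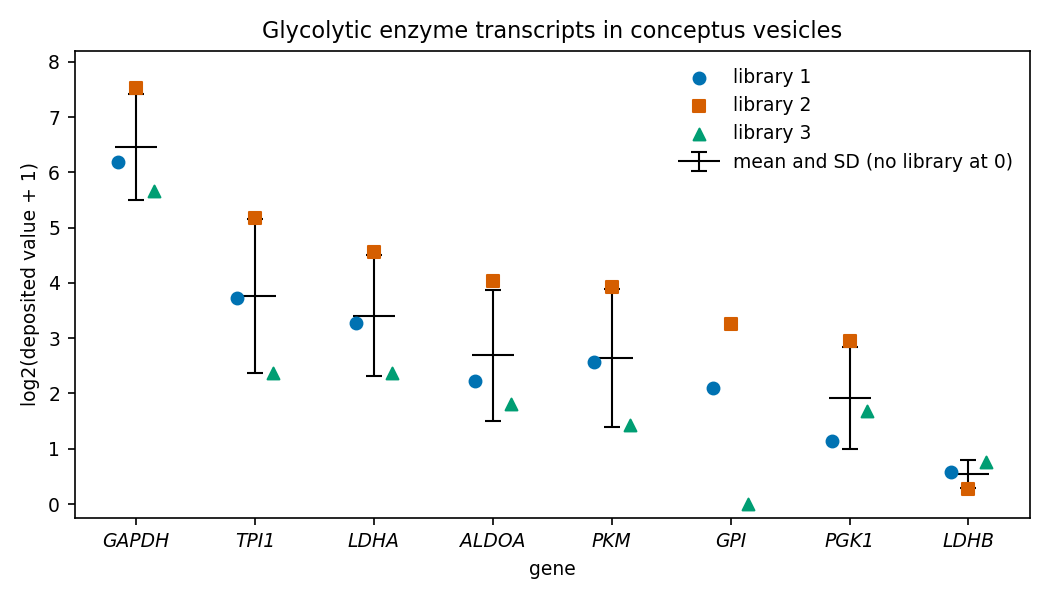
Level of each glycolytic enzyme transcript as log2(deposited value + 1), with 1 point per library and, for genes with no library at 0, a bar for the mean and its SD over 3 libraries. GAPDH lies highest in every library, library 2 is highest for 7 of the 8 genes, and GPI is listed at 0 in library 3.

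In the preparatory phase, GPI and ALDOA gave low to moderate levels. GPI (ENSOARG00000004502), which turns glucose 6-phosphate into fructose 6-phosphate, stood at 3.3 and 8.5 in libraries 1 and 2 and was listed at 0 in library 3. Its 2 nonzero values were above the olfactory receptor percentile. Aldolase A, ALDOA (ENSOARG00000004143), splits the phosphorylated sugar, and its values were 3.7, 15.4 and 2.5, or 7.20 ± 7.13 (SD, n = 3). Library 2 was 4.16 times as high as library 1 for this gene, while libraries 1 and 3 lay close together. The brain isoform ALDOC stood at 0, 0.1 and 0.

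TPI1 (ENSOARG00000005428), the isomerase that lets both products of aldolase continue, ranked next to GAPDH in libraries 1 and 2. It gave 12.3, 35.1 and 4.2, or 17.2 ± 16.0 (SD, n = 3). Among all rows it took rank 148 in library 1, 149 in library 2 and 314 in library 3. Its position was thus nearly the same in the first pair of libraries and lower in the third, where TPI1 and LDHA had equal values.

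GAPDH (ENSOARG00000007894), which oxidises glyceraldehyde 3-phosphate and makes the NADH of the pathway, was the highest enzyme of the set in all 3 libraries. Its values were 71.7, 182.4 and 49.5, or 101.2 ± 71.2 (SD, n = 3). Of all 25197 rows it ranked 21st, 22nd and 10th, and among rows with a name 10th, 8th and 4th. It alone held 67.5%, 64.0% and 76.2% of the summed value of the 8 rows in libraries 1, 2 and 3. There were 2 further rows described as this enzyme without a symbol. ENSOARG00000018785 stood at 0.9, 0.3 and 0, and ENSOARG00000017423 at 0.1, 0 and 0. The sperm isoform GAPDHS was listed at 0 in each library. GAPDH has processed copies in mammalian genomes, and how the authors' counting divided reads among near-identical copies is not given in the sources used here.

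PGK1 (ENSOARG00000018803), which makes the first ATP of the pathway from the product of GAPDH, was far lower than GAPDH. It stood at 1.2, 6.7 and 2.2, or 3.37 ± 2.93 (SD, n = 3). In library 1 this lay below the olfactory receptor percentile of 1.45. GAPDH was 59.8, 27.2 and 22.5 times as high as PGK1 in libraries 1, 2 and 3. PGK1 was also the detected member whose order of libraries departed from the others, with library 1 the lowest. The testis isoform PGK2 was at 0.1 in each library.

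Phosphoglycerate mutase, the next step, had no row under the symbol PGAM1 but was present under other identifiers. The row ENSOARG00000004401, described as phosphoglycerate mutase 1, stood at 2.3, 8.9 and 2.0 and was detected. PGAM4, a close relative of PGAM1, was singled out with its values known and stood at 3.7, 12.1 and 1.7, detected too. Reads of these similar sequences may have been divided between both rows. The muscle isoform PGAM2 was at 0.2 or less.

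Enolase, which makes phosphoenolpyruvate, was the step of the lower pathway with the lowest total over the rows found. Unnamed rows of this step were sought only by the description enolase 1. A row described just as enolase would have been missed. The row described as enolase 1, ENSOARG00000014480, stood at 0.1, 0.1 and 0. Together with ENO2, ENO3 and ENO4 the enolase rows summed to 0.5, 1.2 and 0.4. The steps on either side of it summed to 6.1, 21.2 and 3.7 for the mutase and to 4.9, 14.2 and 1.8 for pyruvate kinase. Each single enolase row was below the olfactory receptor percentile of its library.

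PKM (ENSOARG00000018886), the pyruvate kinase of most tissues, makes the last ATP and pyruvate. It stood at 4.9, 14.2 and 1.7, or 6.93 ± 6.49 (SD, n = 3), and in library 3 it lay just under the olfactory receptor percentile of 1.75. The liver and red cell isoform PKLR was at 0.1 or less. Both splice forms of PKM fall in 1 row and were not separated.

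Among lactate dehydrogenases LDHA, the form that favours lactate production, was far above LDHB, the form of oxidative tissues. LDHA (ENSOARG00000009602) stood at 8.7, 22.7 and 4.2, or 11.9 ± 9.65 (SD, n = 3). LDHB (ENSOARG00000016934) stood at 0.5, 0.2 and 0.7, all below the olfactory receptor percentile, and library 2, the highest for every other enzyme of the set, was its lowest. The values were rounded to 1 decimal, so the LDHA to LDHB ratio was 17.4 in library 1 (15.7 to 19.4 from rounding alone), 113.5 in library 2 (90.6 to 151.7) and 6.0 in library 3 (5.53 to 6.54). The direction was the same in 3 of 3 libraries and the size was not fixed by these data. A further row, ENSOARG00000020280, is described only as an L-lactate dehydrogenase and stood at 5.0, 22.4 and 1.0. It was as high as LDHA in library 2 and lower in the others, and since the file does not say which form it is, the balance of A and B forms holds for the named rows only. Testis-type LDHC was listed at 0 in all 3 libraries.

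The symbols of the set were put in pathway order, and differences between neighbours were tested within libraries for the 6 pairs in which both had a row. The log2(value + 1) scale was used, which understates differences of low genes. Of these pairs, GPI and ALDOA are separated by phosphofructokinase in the pathway, and LDHA and LDHB are forms of the same step. A two-sided exact permutation test that flips signs within libraries cannot give a p below 0.25 with 3 of them, and each of the 6 pairs reached that value (p = 0.25 before and after Benjamini-Hochberg adjustment, exact). Thus no pair could pass 0.05, although each had the same direction in 3 of 3 libraries. GAPDH exceeded PGK1 by 4.53 ± 0.53, and TPI1 minus GAPDH was -2.69 ± 0.51 (SD, n = 3). LDHA exceeded LDHB by 2.87 ± 1.35 and PKM minus LDHA was -0.77 ± 0.16 (SD, n = 3). ALDOA minus TPI1 was -1.07 ± 0.47 (SD, n = 3). GPI minus ALDOA was -0.13, -0.79 and -1.81 in libraries 1, 2 and 3, the last with GPI listed at 0.

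Ordered by mean of the deposited values, the enzymes ran GAPDH, TPI1, LDHA, ALDOA, PKM, GPI, PGK1 and LDHB. The places of GPI and PGK1 turned with the scale, since PGK1 had the higher mean on the log2 scale, per library sum and by upper quartile. For ALDOA and PKM, and for GPI and PGK1, the difference was no larger than its spread. ALDOA minus PKM was 0.05 ± 0.35 on the log2 scale (SD, n = 3), with PKM the higher one in library 1. GPI exceeded PGK1 in libraries 1 and 2, by 0.97 and 0.30, and was below it by 1.68 in library 3. TPI1 minus LDHA, at 0.35 ± 0.32 (SD, n = 3), was barely larger than its spread and was 0 in library 3. LDHA minus ALDOA, at 0.72 ± 0.29 (SD, n = 3), was positive in all 3 libraries.

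Much of the spread of GAPDH and LDHA between libraries went with the summed value of the library. When each library was expressed per 1000000 of its own sum (ppm), GAPDH stood at 4102, 4553 and 5193 ppm in libraries 1, 2 and 3. Its coefficient of variation (SD as a percentage of the mean) was 70.3% as deposited and 11.9% on this scale. LDHA gave 498, 567 and 441 ppm, and its coefficient went from 81.3% to 12.6%. Of the 981 detected rows 32 had a lower coefficient than GAPDH on this scale and 39 a lower one than LDHA, and the median was 46.9%. As deposited, 532 rows had a lower coefficient than GAPDH and 645 a lower one than LDHA, with a median of 66.5%. The rows were not matched for level. A row with equal deposited values, such as WIBG, gets 64.5% on the ppm scale from the library sums alone. These members take part in the sum they were divided by, GAPDH with 0.410% to 0.519% of it. With libraries scaled to the upper quartile of detected rows instead, the coefficients were 5.06% for GAPDH and 22.4% for LDHA.

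**Figure D2:**
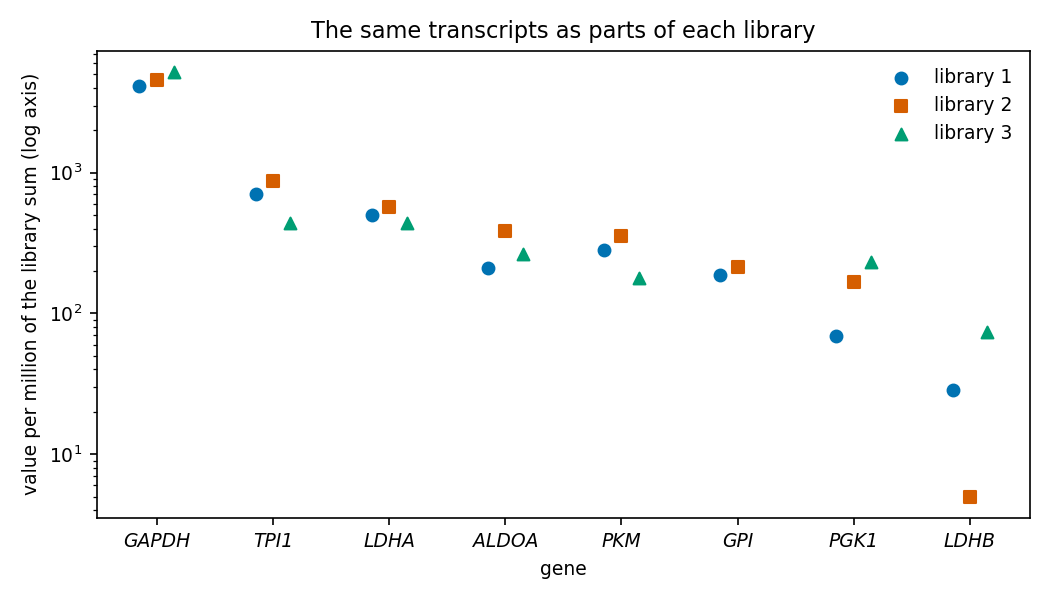
Each transcript as a part of its library, in value per 1000000 of the summed value on a log axis, with 1 point per library. The 3 points of GAPDH lie between 4102 and 5193, those of LDHB spread from 4.99 to 73.4, and GPI in library 3, listed at 0, cannot be drawn.

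The remaining enzymes kept more of their spread. TPI1 stood at 704, 876 and 441 ppm and PKM at 280, 354 and 178, with coefficients of 32.6% each, and both were lowest in library 3. ALDOA gave 212, 384 and 262 ppm (31.0%). PGK1 gave 68.6, 167 and 231 ppm (52.5%), so that library 3, the lowest for TPI1 and PKM, was the highest for PGK1. LDHB also stood highest in library 3, at 73.4 ppm against 28.6 and 4.99. GPI stood at 189 and 212 ppm in libraries 1 and 2 and at 0 in library 3. The enzymes of the pathway thus did not share a single pattern over the libraries.

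**Figure D3:**
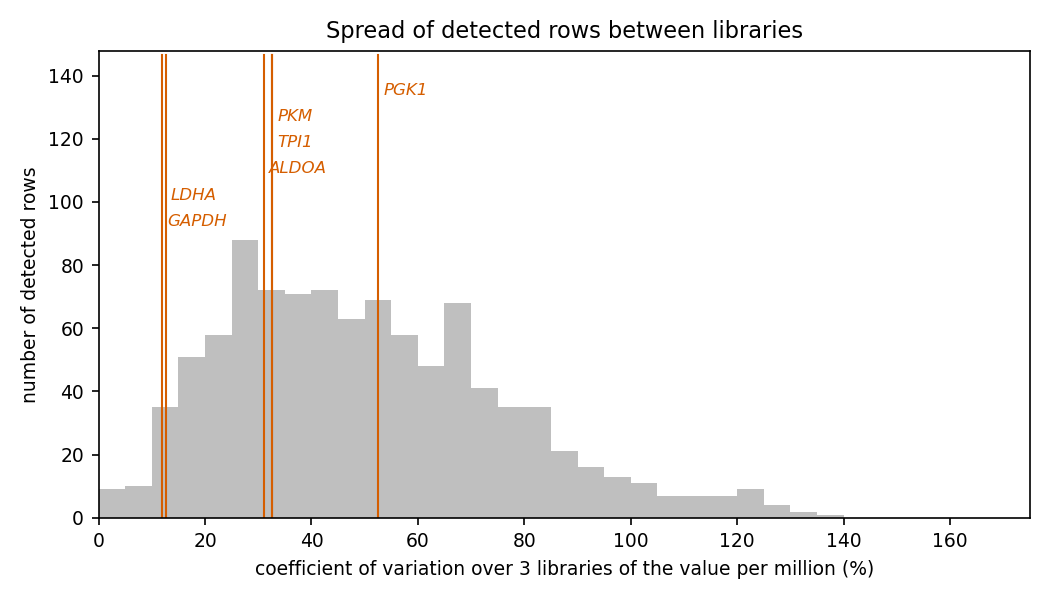
Number of detected rows (981 in all) by the coefficient of variation of the value per 1000000 of the library sum over 3 libraries, with vertical lines at the 6 detected glycolytic enzymes. GAPDH and LDHA lie near the low end at 11.9% and 12.6%, ALDOA, TPI1 and PKM between 31.0% and 32.6%, and PGK1 at 52.5%.

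Together the 8 rows held 0.608% of the total of library 1, 0.712% of that of library 2 and 0.682% of that of library 3, or 0.667% ± 0.053 (SD, n = 3). Without GAPDH they held 0.198%, 0.257% and 0.163%. Library 3, which had the lowest sum, gave GAPDH its largest part of the library, and the sum of the other 7 rows its smallest, although PGK1 and LDHB within that sum had their largest part there.

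The enzymes that commit glucose to the pathway were near background. Rows of a step were summed, with steps and rows assigned after the values were seen. The 4 hexokinase rows HK1, HK2, HK3 and HKDC1, whose enzymes trap glucose in the cell, summed to 0.5, 0.8 and 0.7, and the 3 phosphofructokinase rows, the main control point, to 0.6, 0.8 and 1.4. Their leading rows were HK1 at 0.3, 0.4 and 0.6 and PFKL at 0.6, 0.7 and 1.4. Both were below the olfactory receptor percentile of the same library. None of the 27 rows of other isoforms and steps was detected, against 3.89% of all rows. At that share so short a list can hold no detected row, and the count is no sign of absence. PGAM5, a mitochondrial phosphatase, at 0.4, 1.5 and 0.6 was next to PFKL by mean. Over the rows found, hexokinase, phosphofructokinase and enolase were the steps without a detected row besides GPI. Unnamed rows of hexokinase and phosphofructokinase were not sought by description.

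**Figure D4:**
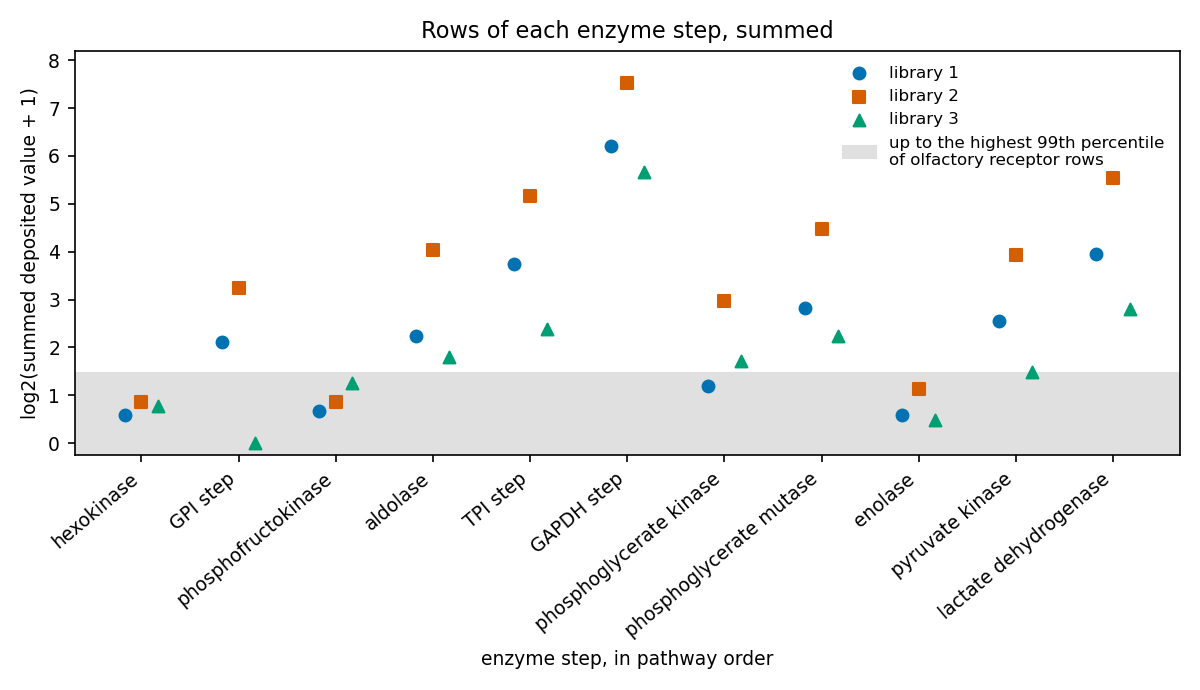
Summed deposited value of the rows of each enzyme step, as log2(sum + 1), in pathway order, with 1 point per library. The grey band reaches up to 1.75, the highest of the 3 olfactory receptor percentiles, which is of single rows and not of sums. Hexokinase, phosphofructokinase and enolase lie inside it in all 3 libraries, whereas the GAPDH step lies between 49.5 and 182.7.

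Genes that bring fuel to the pathway and carry its products were detected in part. Of 19 transport rows 3 were detected (15.8%, against 3.89% of all rows). These were MPC1 (9.0, 11.2 and 5.2) and MPC2 (7.3, 17.6 and 1.0), which form the mitochondrial pyruvate carrier, and BSG (2.1, 8.4 and 4.4), the chaperone of lactate transporters. EMB, a related chaperone, stood at 10.9 and 27.4 in libraries 1 and 2 and was listed at 0 in library 3. The glucose transporter SLC2A1 stood at 3.0 and 6.7 and was also listed at 0 there, as GPI was. The lactate transporter SLC16A1 stood at 0.8, 2.2 and 0.3.

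Of 28 rows of pyruvate dehydrogenase and the citric acid cycle 3 were detected (10.7%, against 3.89% of all rows). These were the malate dehydrogenases MDH2 (6.2, 25.8 and 6.0) and MDH1 (1.9, 11.6 and 4.3), the latter cytosolic and part of the shuttle that reoxidises the NADH made by GAPDH, and the succinate-CoA ligase subunit SUCLG1 (2.0, 8.4 and 1.8). Of 26 rows of gluconeogenesis, glycogen and related entry routes 3 were detected (11.5%, against 3.89% of all rows). They were the muscle-type glycogen synthase GYS1 (4.2, 10.2 and 1.8), the mitochondrial aspartate aminotransferase GOT2 (2.7, 8.8 and 2.5) and the glycerol phosphate dehydrogenase-like GPD1L (3.5, 7.6 and 1.7). In the pentose phosphate pathway 0 of 7 rows were detected, against 3.89% of all rows. PGD stood at 0.4, 2.7 and 6.2, TALDO1 at 0.5, 4.6 and 1.5 and TKT at 0.9, 3.1 and 1.7, each failing in library 1. Among 16 regulators 0 were detected, against the same share of all rows. Lists this short would mostly hold no detected row at that share. Neither this count nor that of the pentose phosphate rows is thus a sign of absence. The oxygen sensor EGLN1 (2.0, 3.2 and 0.7), EPAS1 (1.5, 1.4 and 0.3) and PRKAA1 (0.5, 0.8 and 1.8) had the highest means. HIF1A, the oxygen-regulated activator of many glycolytic genes, stood at 0.6, 1.0 and 0.9.

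In all, 9 of the 123 rows of these 6 lists were detected (7.32%), against 3.89% of all rows. The count depended on single libraries and was 18 without library 1 (14.6%, against 5.06% of all rows) and 18 without library 3 (14.6%, against 7.29%). The median log2(value + 1) over all rows of a list was 0.33 ± 0.23 for transport, 0.65 ± 0.61 for the citric acid cycle list and 0.09 ± 0.08 for other glycolytic isoforms and steps (SD, n = 3), each below the 2.71 of the 8 enzymes, whose choice was made with their levels known.

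Among the detected enzymes themselves TPI1 and PKM had the most similar pattern over the libraries. Likeness was the root mean square difference of log2(value + 1) after subtracting the mean of each gene, over only 3 libraries. TPI1 and PKM differed by 0.13, PKM and LDHA also by 0.13, and TPI1 and PGK1, the farthest apart, by 0.82. The pseudocount compresses low rows, and without it, an alternative chosen after seeing the data, TPI1 and PKM differed by 0.011 while PKM and LDHA differed by 0.27. As deposited, library 2 was 8.36 and 8.35 times library 3 for TPI1 and PKM and 5.40 times for LDHA. TPI1 and PGK1 were again the farthest apart, at 1.00.

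Outside the pathway, the rows nearest to an enzyme in pattern depended on the pseudocount. Over 723 named and detected candidates, those nearest to GAPDH were SNRPD3, a core spliceosomal protein (0.0054), POLR1D (0.029), COX5A (0.040), ATP6V1E1 (0.042) and POLR2G (0.049). These are lower rows, and library 2 was 4.62 times library 3 for SNRPD3 as deposited against 3.68 times for GAPDH. Without the pseudocount COX5A, a subunit of cytochrome c oxidase, took place 6 (0.052) and SNRPD3 place 30 (0.13), and the nearest row was YWHAZ_1 (0.028). Nearest to TPI1 were GNG5 (0.018), TPT1 (0.030) and FTL_4 (0.044), which took places 65, 6 and 10 without it. Nearest to LDHA were NDUFB6 (0.012), SRSF9 (0.022) and CHCHD5 (0.035), which took places 41, 38 and 31. None of these rows thus stayed among the nearest 5 or 3.

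Markers of the conceptus and of other possible sources were read beside these levels. Their counts stand against 3.89% of all rows detected. Of 9 trophectoderm rows 3 were detected, with the keratin KRT8 at 26.3, 138.9 and 27.3 and the interferon tau gene TP-1 at 6.7, 26.2 and 4.7, but the lineage regulator CDX2 stood at 0.5, 0.2 and 0. The other rows not detected were GATA3 (0.9, 0.9 and 3.0), ELF5 (1.0, 0.2 and 0.8), TFAP2C (0.2, 0.5 and 0.4), TFAP2A (0, 0.1 and 0.1) and GATA2 (0 in each library). The list, most of it KRT8, summed to 38.2, 178.9 and 37.9. Uterine epithelial markers were detected in 4 of 8 rows and summed to 60.1, 172.2 and 11.0, led by LGALS15 (18.8, 74.2 and 4.5) and CST6 (24.9, 49.1 and 1.1). The rows not detected were GRP (0.4, 3.2 and 1.3), CTSL (0, 1.3 and 0.1), PGR (0, 0.5 and 0) and SERPINA14 (0, 0.4 and 0). Both lists were highest in library 2, as were the library sums and GAPDH, TPI1, LDHA, ALDOA and PKM. These sums and enzymes and the uterine list were lowest in library 3, whereas the trophectoderm list was nearly equal in libraries 1 and 3. As parts of the library the leading rows of the lists differed. KRT8 (1505, 3467 and 2864 ppm) and TP-1 (383, 654 and 493 ppm) were lowest in library 1. GATA3 (51.5, 22.5 and 315 ppm) and ELF5 (57.2, 4.99 and 83.9 ppm), not detected, were instead lowest in library 2. LGALS15 (1075, 1852 and 472 ppm) and CST6 (1424, 1226 and 115 ppm) were lowest in library 3, whereas GRP (22.9, 79.9 and 136 ppm), not detected, was lowest in library 1. The part of either tissue in the enzyme levels was not tested. Extraembryonic endoderm markers were detected in 1 of 9 rows (APOA1 at 6.0, 10.3 and 6.3, followed by APOA2 at 0.9, 5.4 and 2.9) and epiblast markers in 1 of 6 (SOX2 at 1.5, 1.0 and 1.6, followed by TDGF1 at 0.6, 0.8 and 2.4). None of 6 erythroid, 7 leukocyte or 6 skeletal muscle rows was detected. At the share over all rows, lists this short would mostly hold no detected row, so these counts are no sign of absence. Their leading rows were EPB42 (0.4, 0.9 and 0.5) and HBM (0.3, 0.3 and 0.2) for erythroid cells, AIF1 (0.3, 2.8 and 4.1) and CD74 (1.5, 1.3 and 0.1) for leukocytes, and DES (0.6, 0.3 and 0.1) and TNNT3 (0.4, 0.4 and 0.2) for muscle. The erythroid list summed to between 0.8 and 1.4 and the muscle list to between 0.9 and 1.7, so both defining sets were near 0 in every library, and the leukocyte list to between 2.7 and 6.2.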

How the data were processed

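Vesicle RNA of day 14 conceptuses, 5 ng per library, was turned into cDNA with the SMART-Seq v4 kit and read as 50 bp pairs, per the labels' protocols. The submitters' processing notes name the build Oar_v3.1; aligner, counter and annotation are not given in the sources used. The authors deposited 1 table of values that were taken here as RPKM, scaled by gene length and depth and rounded to 1 decimal, since the file names no unit. All values above 0 of the 1012 short U6 RNA rows were at 0.3 or more, against 39.2% to 54.7% of those of other rows, as length scaling gives, and the sums had no fixed total. FPKM would look alike. The commonest U6 value above 0, about the worth of 1 read in so short a gene, was 0.4, 0.5 and 0.4; total depth is unknown, and no count model was used. Identifiers matched 0 entries of the RefSeq gene table, so no coordinates are given.

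Library numbers follow the order of the labels. Values were analysed with Python 3.11.15, numpy 2.4.6 and pandas 2.3.3, with a pseudocount of 1 for log2. The code was run on simulated data in which raised rows lay far above the detection value and all others below it. That run checked the code and could not test the detection rule. No 2 libraries were copies, since 14 to 25 of the 981 detected rows had equal values in a pair. The members and lists were chosen with earlier results of these data known. Named genes were all member rows, unnamed rows described as one of the 10 enzymes, the detected genes of each list or its 3 highest, the highest 2 of each marker list, and the nearest 5 (GAPDH) or 3 (TPI1, LDHA) in pattern. PGAM4, HIF1A, SLC16A1, the trophectoderm and uterine markers not detected and isoforms at low level were added with their values known. A few genes taken by these rules are left out of the text. Alternatives were other detection rules, pseudocounts and scalings, summed copies, added unnamed rows and leaving out each library.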

Additional observations from a re-analysis of the deposited data

How the results depend on the processing

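The number of detected glycolytic enzymes was between 4 and 8 under all alternatives, 4 at a value of 2 and 8 with unnamed rows added, an alternative chosen after seeing the data; without 1 library it ranged from 6 to 7. The 6 differences between listed enzymes kept their direction under every alternative run, and leaving out LDHB as a low row gave no value for LDHA minus LDHB. The median level of 2.71 was 8.14 with libraries scaled to sums of 1000000, a change of unit, and ranged from 2.07 to 3.19 without 1 library. The share of 0.667% was 1.09% of named rows and 0.744% without the 2 highest rows of the table, and ranged from 0.645% to 0.697% without 1 library. The 9 detected rows of the carbohydrate lists (7.32%, against 3.89% of all rows) became 21 at a value of 0.5 (17.1%, against 7.56%), 4 at a value of 2 (3.25%, against 1.89%) and 27 in at least 2 of 3 libraries (22.0%, against 9.02%), and ranged from 9 to 18 without 1 library. No paired analysis was possible because there is 1 group, so no libraries could be paired across groups; enzymes were compared within libraries. Rounding to 1 decimal and unknown depth limit what can be said of LDHB, hexokinase, phosphofructokinase and enolase rows, and a p of 0.25, the smallest possible, says nothing about stability.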
